A study of Danio rerio with 28 samples.

Results

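Single cells sorted as germ cells from wild-type zebrafish embryos at 24 hours post fertilization (hpf) were separated by whether a transcript of nanos3 was counted in them. The cells came from 5 plates, and a cell was called positive with 1 or more nanos3 transcripts and negative with 0. This gave 106 positive and 90 negative cells, 196 of the 1203 cells in the table. In all its cells together, 352 were positive and 851 negative. The comparison asks which other genes differ between such cells within the same plate. Since nanos3 chose the cells, its own values are a description, and every test below concerns another gene.

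Primordial germ cells are the embryonic precursors of eggs and sperm. In zebrafish they are set apart by germ plasm, maternally supplied granules of RNA and protein, and by 24 hpf they have migrated to the site of the future gonad. Nanos3 is an RNA-binding translational regulator of germ cells, and its mRNA is kept in these cells and cleared from the soma through its 3'UTR.

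The embryos came from wild-type mothers and, in a second set of plates, from mothers lacking maternal and zygotic tdrd6a, a Tudor domain protein of germ granules; the mutant embryos are labelled Tdrd6a-:-. The transgene kop::egfp-f-nos1-3'UTR was carried by the wild-type mothers, and the design text does not make clear whether the mutant mothers carried it too. It makes a membrane GFP from kop, a promoter active in the female germ line, and ends in a nanos 3'UTR, nos1 being an older name of nanos3. The cells were processed by CEL-seq, which counts mRNA at its 3' end, so reporter and endogenous mRNA cannot be told apart in the nanos3 row. At 24 hpf there were 3 mutant plates with 156 cells, and 1 further wild-type plate held 40 wells of 24 hpf beside wells of another stage; neither set was used to choose this comparison. Fish were kept in a standard way, per the labels. The labels do not state that plates were separate clutches, so p-values measure the spread between plates, which may be technical. The limma tests below pool part of that spread across genes. Levels of tdrd6a itself were not analysed here.

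The table listed 1017 genes, and a cell held a median of 505 listed transcripts other than nanos3, with a range of 265 to 855. The plates summed to between 11931 and 29057 listed transcripts. A gene with few transcripts is therefore seen in a cell or missed largely by chance of sampling, and a count of 0 for nanos3 does not show that the mRNA was absent. Of the 90 well numbers in use, 68 occurred in 2 or more of the 5 plates. No same-numbered pair of wells held identical profiles in 152 pairs, and the median correlation of such pairs was 0.4937 against 0.4926 for other wells of different plates. Gene names are those of the table, with the prefix germ dropped from germnanos3, germvasa, germdnd, germca15b, germtdrd7, germgra and germdazl.

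Positive cells made up very different shares of the plates. Plate 1 had 7 positive cells of 41 (17.1%, 95% Wilson interval 8.53 to 31.3), and plate 4 had 9 of 35 (25.7%, 14.2 to 42.1). Plate 2 had 14 of 20 (70%, 48.1 to 85.5), plate 5 had 30 of 43 (69.8%, 54.9 to 81.4) and plate 3 had 46 of 57 (80.7%, 68.7 to 88.9). The mean was 52.7% ± 29.04 (SD, n = 5 plates), and the 2 plates with few positive cells did not overlap the other 3. Intervals of shares here and below cover counting error only. In the 3 mutant plates the positive cells were 12 of 42, 6 of 54 and 40 of 60, which is 35.4% ± 28.4 (n = 3).

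The positive cells themselves spanned a wide range of nanos3. The median was 4 transcripts per positive cell and the lowest was 1. The highest cell held 75, in plate 2, and the next highest held 25; the cell with 75 also held 6 vasa and 5 dnd transcripts. At the edge of the rule, 26 positive cells held exactly 1 transcript. These cells were 5 of the 7 positive cells of plate 1 and 7 of the 14 of plate 2, against 6 of 46, 2 of 9 and 6 of 30 in plates 3, 4 and 5. Plates 1 and 2 thus had the positive cells closest to the threshold. Without the cell with 75 transcripts, the mean of the positive cells of plate 2 was 3.38 in place of 8.5.

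**Figure D1:**
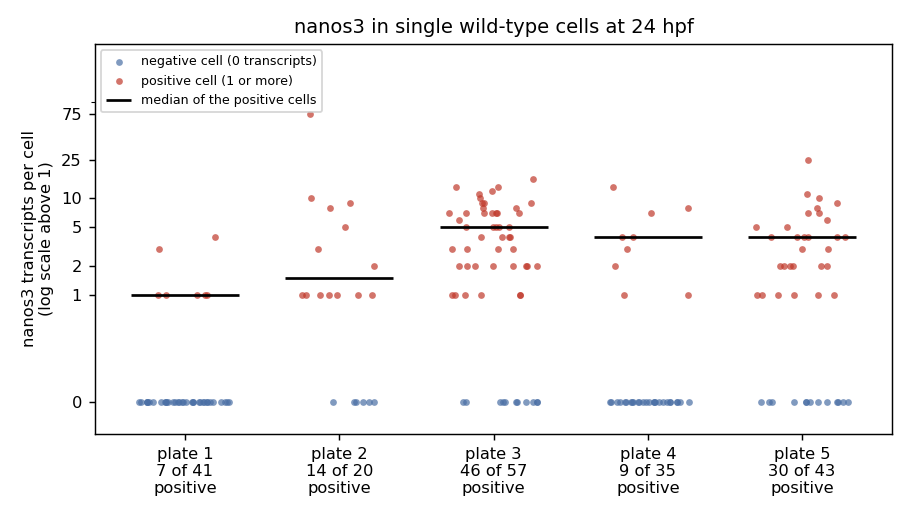
Each point is 1 wild-type cell at 24 hpf, placed by its nanos3 transcripts (y axis, logarithmic above 1) and its plate, with positive cells in red, negative cells in blue and a bar at the median of the positive cells. Plates 1 and 4 hold few positive cells, many positive cells of plates 1 and 2 sit at 1 transcript, and 1 cell of plate 2 stands at 75.

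In the paired comparison, 4 of 6 tested germ cell genes were higher in nanos3-positive cells. All of the 6 but vasa reached the filter on low values through the positive cells. The lower genes included the chromatin gene ptmab, a pair of epidermal keratins and cyclin D1. Only ptmab of the lower genes was still called after rescaling to the same total. Of 653 genes tested, 13 passed an adjusted p of 0.05 (1.99%), with 8 higher (1.23%) and 5 lower (0.766%) in positive cells. The higher genes were ca15b, dnd, GTSF1L, vasa, h1m, calm1b, h2afva and HNRNPAB, and the lower genes were ptmab, krt4, mdka, krt8 and ccnd1. Each plate gave 1 mean for its positive and 1 for its negative cells, and log2 differences are of these means with 0.2 transcripts added, which understates the change of low genes. P-values are two-sided limma tests with plate as a block, adjusted by Benjamini-Hochberg over all 653 genes. At an unadjusted p below 0.05 there were 129 genes, and 47 genes were higher (7.2%) and 54 lower (8.27%) in every plate. Without plate 1 there were 7 calls and without plate 5 there were 5. The positive and the negative means of the 5 plates did not overlap for 23 genes (3.52%). The split into higher and lower calls depended on the scaling and on the filter. It was 12 higher and 1 lower when cells of both kinds were rescaled to the same total, and 10 and 3 when cells were thinned to 300 transcripts. With a minimum mean of 0.5 transcripts it was 4 higher and 16 lower of 220 genes, and 5 of those 20 calls were among the 13. Genes of the 13 below that mean were not tested there. The median log2 difference over all genes was -0.09 as deposited and 0.05 after rescaling, so differences below are read against the median of all genes.

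Positive cells held fewer listed transcripts than negative cells. Apart from nanos3 they had 491.7 ± 61.4 per cell against 564.9 ± 44.7 (SD over 5 plates), lower in all 5 plates by a mean of 73.2 transcripts, a difference of -73.2 with a two-sided exact permutation p of 0.0625. That is the smallest p that 5 pairs of plates can give. The number of genes detected was 227.6 ± 9.12 against 231.6 ± 8.97 with an exact permutation p of 0.625. At 300 transcripts per cell, which left out 2 positive and 3 negative cells with smaller totals, the order turned: 171.3 ± 10.7 genes in positive and 163.9 ± 8.34 in negative cells, higher in all 5 plates (exact permutation p = 0.0625). The table holds a selection of genes, so these totals are not the depth of a cell.

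Germ cell genes come first. Vasa, the DEAD box RNA helicase that is the classic germ plasm marker, stood in positive cells at 0.571, 1.36, 0.935, 1.67 and 1.43 transcripts per cell in plates 1 to 5. In negative cells it stood at 0.206, 0.667, 0.182, 0.192 and 0.538. It was higher in positive cells of every plate, with an overlap between the lowest positive and the highest negative plate. The means were 1.19 ± 0.436 and 0.357 ± 0.229 (SD, n = 5), a log2 difference of 1.35 (SE 0.28, limma adjusted p = 0.0042). Pooled over plates, a vasa transcript was counted in 61 of 106 positive cells (57.5%, 48.0 to 66.5) and in 13 of 90 negative cells (14.4%, 8.64 to 23.2). Plate 2 had the reverse order of shares, 42.9% of positive and 50% of negative cells. At 300 transcripts per cell the pooled counts were 46 of 104 and 8 of 87.

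Dnd, an RNA-binding protein that shields germ cell mRNAs from microRNAs, had 0.714, 0.714, 0.435, 0.333 and 0.600 transcripts per positive cell. Negative cells had 0.0882, 0, 0, 0.0385 and 0.154, so the groups did not overlap. The log2 difference was 1.57 (SE 0.31, adjusted p = 0.00329). It was counted in 37 positive cells (34.9%, 26.5 to 44.4) and 4 negative cells (4.44%, 1.74 to 10.9).

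Ca15b, a carbonic anhydrase gene whose mRNA is a known germ plasm component in zebrafish, had 0.429, 0.357, 0.457, 0.667 and 0.433 transcripts per positive cell. Negative cells had 0 in plates 1, 2, 4 and 5 and 0.0909 in plate 3, which is 1 transcript in 1 of all 90 negative cells. The log2 difference of 1.62 (SE 0.31, adjusted p = 0.00329) leaned on the 0.2 transcripts added, since nearly all negative cells were at 0. It was counted in 35 positive cells (33.02%, 24.8 to 42.4). When cells were thinned to 300 transcripts its adjusted p was 0.107, with 23 of 104 positive and 0 of 87 negative cells left with a transcript.

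H1m, the maternal linker histone that is kept in germ cells, had 0.571, 0.429, 0.326, 0.556 and 0.400 transcripts per positive cell against 0.0588, 0, 0.182, 0.115 and 0 in negative cells. The groups did not overlap, and the log2 difference was 1.31 (SE 0.31, adjusted p = 0.0171). The call was lost without plate 1 or without plate 5, with adjusted p up to 0.136. GTSF1L is named after gametocyte specific factor 1, a protein of the piRNA pathway in mice and flies. It was not in the germ list and had 0.429, 0.571, 0.478, 0.778 and 0.467 against 0.0294, 0, 0.0909, 0.154 and 0.0769. Its groups did not overlap either, with a log2 difference of 1.47 (SE 0.30, adjusted p = 0.0042).

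Tdrd7 and gra did not pass. Tdrd7, a Tudor domain gene of germ granules, stood at 0.273 ± 0.232 against 0.0558 ± 0.0749 transcripts per cell, a log2 difference of 0.77 (SE 0.35, adjusted p = 0.2), and was higher in positive cells of 3 plates and lower in 2. Gra, or granulito, a germ granule gene, stood at 0.230 ± 0.0992 against 0.0443 ± 0.0837, a log2 difference of 0.84 (SE 0.32, adjusted p = 0.139), higher in all 5 plates. Dazl, an RNA-binding protein of the germ line, was below the filter of 0.1 transcripts per cell and entered no test. It was counted in 11 of 106 positive cells and in 0 of 90 negative cells, which allows a share of up to 3.33% (95% Wilson bound 4.09%). This limits cells with a counted transcript, not cells that express dazl, and plate 1, with 34 of the 90 negative cells, had none in its positive cells either. Buc, piwil1, piwil2, sycp3 and dmc1 were also below the filter, with at most 1 positive and 1 negative cell each.

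Of the 12 germ list genes other than nanos3, 6 were thus tested, of which 4 rose and 0 fell, with a median log2 difference of 1.33 against -0.09 over all genes. Their summed level was 3.32 ± 0.82 transcripts per positive cell and 0.65 ± 0.14 per negative cell. All tested germ genes but vasa stood below 0.1 transcripts per cell in negative cells, so they reached the filter through the positive cells. The same held for GTSF1L and calm1b. With no filter 11 germ genes had a fit, 8 with positive and 3 with negative differences. The median was then 0.77, and 4 were called. The next counts use 6 genes with the untested dazl in place of h1m: vasa, dnd, dazl, tdrd7, gra and ca15b. At least 1 of these was counted in 85 positive cells (80.2%, 71.6 to 86.7) and 20 negative cells (22.2%, 14.9 to 31.8). At least 2 were counted in 52 positive and 5 negative cells, and at least 3 in 28 and 1. The remaining 21 positive and 70 negative cells held none of the 6. The median listed total was 458 transcripts in positive and 578 in negative cells. The sorted cells are labelled germ cells, and most of the negative cells had no counted transcript of these 6 genes at these totals.

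For comparison, 28 cells held 10 or more transcripts of skeletal muscle or of epidermis genes. Of these 4 (14.3%, 5.7 to 31.5) held vasa, 2 (7.14%, 1.98 to 22.6) held dnd, 2 held ca15b and 5 (17.9%, 7.88 to 35.6) held at least 1 of the 6 tested germ genes, at a median listed total of 591.5 transcripts. The tested genes hold h1m and not dazl, so that last share is not of the set counted above. Nanos3 itself was counted in 7 of the 28 (25%, 12.7 to 43.4), with 1, 1, 1, 1, 2, 5 and 7 transcripts, and in 99 of the other 168 cells (58.9%, 51.4 to 66.1), at a median listed total of 488. The share of negative cells with vasa, 14.4%, ran from 3.85% in plate 4 to 50% in plate 2, and lay within the interval of the muscle- or epidermis-rich cells. All but 7 of those 28 rich cells were themselves negative cells, so the 2 shares are not independent and the interval is wide. Since some rich cells held several nanos3 transcripts, they are no clean level for cells without germ cell RNA, and how vasa came to be counted in negative cells was not tested. A single nanos3 transcript was thus counted in cells that carried the genes of other tissues.

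Calm1b, h2afva and HNRNPAB completed the higher genes. Calm1b, a calmodulin gene, stood at 0.476 ± 0.278 against 0.0625 ± 0.0607 transcripts per cell with no overlap (log2 1.30, SE 0.31, adjusted p = 0.0171). H2afva, a histone variant of the H2A.Z family, stood at 0.707 ± 0.207 against 0.238 ± 0.127, also with no overlap (log2 1.07, SE 0.29, adjusted p = 0.0384). HNRNPAB, an RNA-binding ribonucleoprotein, stood at 1.81 ± 0.393 against 0.940 ± 0.372, higher in every plate with overlapping ranges (log2 0.85, SE 0.24, adjusted p = 0.0477). A separate entry of the same name in lower case, hnrnpab, went the other way at log2 -0.12 and was not called. The calls of h2afva and HNRNPAB were each lost without any one of 4 plates, plate 2 being the exception for h2afva and plate 4 for HNRNPAB, with adjusted p up to 0.126 and 0.276, and that of calm1b without plate 4 or 5. The calm1b call was also lost on thinning to 300 transcripts, and those of h2afva and HNRNPAB with a pseudocount of 1 transcript, with no filter, and without the cells rich in muscle, epidermis or pigment cell transcripts described below.

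**Figure D2:**
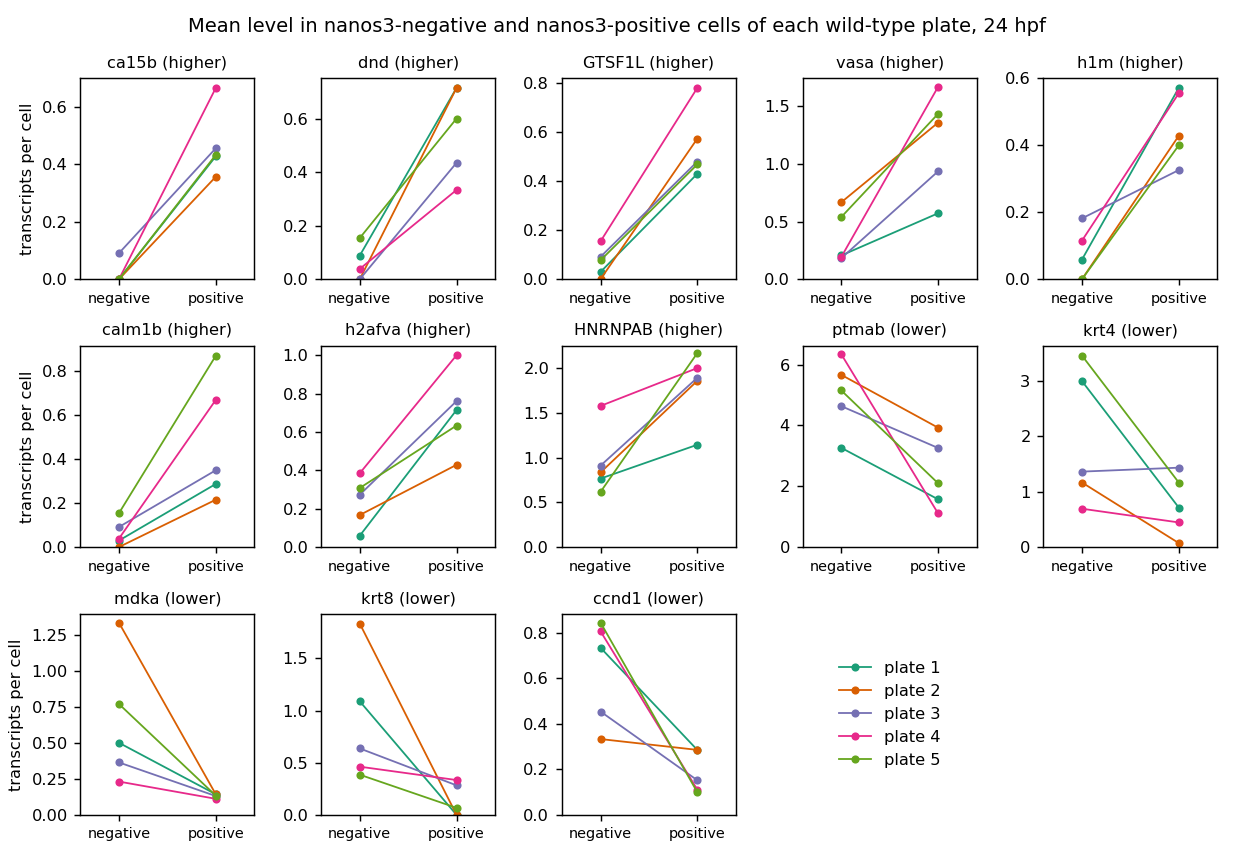
Each panel is 1 of the 13 genes called in the wild-type plates, with the mean transcripts per cell (y axis, each panel with its own scale) of the negative and the positive cells of a plate joined by a line. All lines rise for the 8 higher genes; they fall for the 5 lower genes except krt4 in plate 3.

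Among the lower genes, ptmab had the most transcripts behind it. Prothymosin alpha, which it encodes, is an acidic chromatin-associated protein abundant in dividing cells. It stood at 1.57, 3.93, 3.26, 1.11 and 2.1 transcripts per positive cell and at 3.26, 5.67, 4.64, 6.35 and 5.15 per negative cell. Each plate's positive cells were lower, and the ranges overlapped between plates. The log2 difference was -1.10 (SE 0.22, adjusted p = 0.0108), and the adjusted p was 0.073 without plate 1.

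Ccnd1, encoding cyclin D1 of the entry into the cell cycle, had 0.286, 0.286, 0.152, 0.111 and 0.1 transcripts per positive cell against 0.735, 0.333, 0.455, 0.808 and 0.846 per negative cell. The groups did not overlap, and the log2 difference was -1.09 (SE 0.30, adjusted p = 0.0477). Mdka, the growth factor midkine, had 0.111 to 0.143 transcripts per positive cell in the 5 plates and 0.231 to 1.33 per negative cell, also with no overlap (log2 -1.19, SE 0.31, adjusted p = 0.0325). Both calls were lost on rescaling to the same total and on thinning, and without plates 1 or 5; the ccnd1 call was also lost without plate 4 and the mdka call without plate 2.

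The other lower genes were keratins of the epidermis. Krt8 had 0, 0, 0.283, 0.333 and 0.0667 transcripts per positive cell against 1.09, 1.83, 0.636, 0.462 and 0.385 per negative cell, with no overlap (log2 -1.65, SE 0.39, adjusted p = 0.0384). Krt4 had 0.714, 0.0714, 1.43, 0.444 and 1.17 against 3, 1.17, 1.36, 0.692 and 3.46, lower in 4 of 5 plates (log2 -1.19, SE 0.29, adjusted p = 0.0325). A few cells carried much of these transcripts: the top cell held 34 of the 187 krt4 transcripts in negative cells and 34 of the 111 in positive cells. Epidermis-rich cells, with 10 or more transcripts of the epidermis list, numbered 18, of which 5 were positive. Muscle-rich cells numbered 10, of which 2 were positive and 7 lay in plate 1, and 2 negative cells of plate 4 were rich in pigment cell genes. In all 7 of 106 positive and 23 of 90 negative cells were rich in 1 of these lists. The krt4 call was also lost without plate 1, 4 or 5 and the krt8 call without plate 1 or 5. After rescaling to the same total the adjusted p was 0.0979 for krt4 and 0.0622 for krt8, and neither passed with limma voom on summed transcripts; krt8 also did not pass with a pseudocount of 1 transcript. Without the rich cells 17 genes passed, 7 higher and 10 lower, of which 9 were among the 13, and the calls of krt4 and krt8 were lost. Since both keratins belong to the list that marks rich cells, leaving those cells out takes their transcripts away by construction; the log2 differences left were -0.51 for krt4 (adjusted p = 0.389) and -1.12 for krt8 (adjusted p = 0.0541). Fewer cells of a type and less RNA per cell cannot be told apart in such means over cells.

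**Figure D3:**
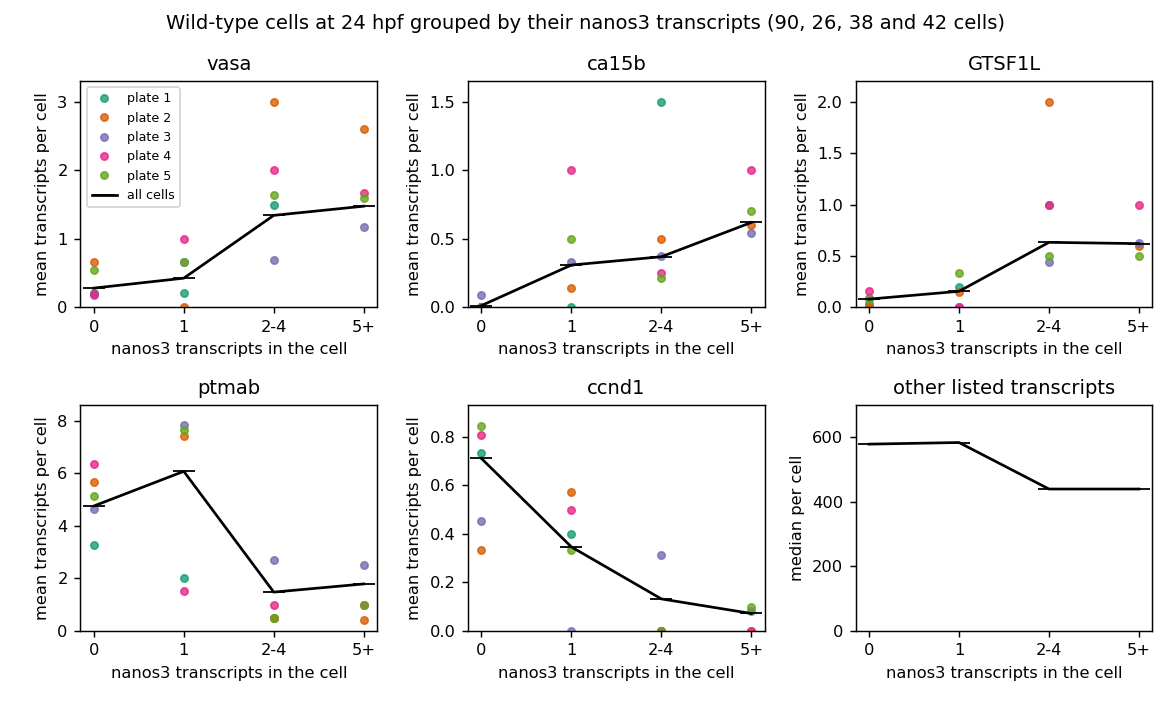
Wild-type cells grouped by their nanos3 transcripts (x axis; 90, 26, 38 and 42 cells), with the mean transcripts per cell of 5 genes by plate (points) and over all cells (line), and the median of other listed transcripts per cell in the last panel. Vasa and GTSF1L are highest and ptmab and the listed total lowest from 2 nanos3 transcripts on. Over all cells, those with 1 transcript have no less ptmab and no lower listed total than those with 0.

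Cells with exactly 1 nanos3 transcript differed in level from cells with more. The 26 cells with 1 transcript held a median of 583 other listed transcripts and the 90 negative cells 578, against 439 in the 38 cells with 2 to 4 and 439 in the 42 cells with 5 or more. Ptmab stood at 4.76 transcripts per cell at 0 nanos3, 6.08 at 1, 1.47 at 2 to 4 and 1.79 at 5 or more. Vasa stood at 0.278, 0.423, 1.34 and 1.48, and GTSF1L at 0.0778, 0.154, 0.632 and 0.619. Ca15b stood at 0.0111, 0.308, 0.368 and 0.619, and dnd at 0.0667, 0.308, 0.447 and 0.738, so over all cells both were already higher at 1 nanos3 transcript. By plate, ca15b was higher at 1 than at 0 in plates 2 to 5 but stood at 0 for both in plate 1. Dnd was higher in plates 1 to 4 and nearly level in plate 5, with 0.167 against 0.154. Ccnd1 stood at 0.711, 0.346, 0.132 and 0.0714. These are levels over cells with no test, and the plates mix differently: plate 3 gave 24 of the 42 cells at 5 or more and plate 1 gave none. Within plates, ptmab in cells with 1 nanos3 transcript stood at 7.43, 7.83 and 7.67 in plates 2, 3 and 5 but at 2 and 1.5 in plates 1 and 4, which had 5 and 2 such cells.

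With cells of 2 or more nanos3 transcripts as the positive cells, 77 of 638 genes passed (12.1%), with 18 higher (2.82%) and 59 lower (9.25%), and all 13 genes named above were among them. This left 80 positive cells, with 2, 7, 40, 7 and 24 in plates 1 to 5, so plate 1 rested on 2 cells; with plates 2 to 5 alone 91 genes passed, 28 higher and 63 lower. The 80 cells are part of the 106 positive cells and were set against the same 90 negative cells. That the 13 genes recur is therefore no independent result. After rescaling to the same total 83 passed, 37 higher and 46 lower, and 18 higher and 46 lower genes passed in both scalings. Ptmab was lowest in p, at 1.04 ± 0.885 against 5.01 ± 1.16 transcripts per cell (log2 -2.27, SE 0.27, limma adjusted p = 3.27e-14). A p-value this small from 5 plates rests on the spread that limma pools across genes more than on the gene's own plates. The same holds for fabp3 below. That pooled spread was estimated anew in this fit, so the counts of 77 and 13 do not differ by the choice of cells alone. The other lower genes named here were chosen after their values were seen, as the first in order of p with an informative name. Fabp3, a fatty acid binding protein, fell from 1.95 ± 0.527 to 0.280 ± 0.236 (log2 -2.29, SE 0.36, adjusted p = 7.00e-08). Hmgn2, a nucleosome-binding protein, fell by 1.77 on the log2 scale, the RNA-binding cold shock gene cirbp by 1.61, the replication clamp gene pcna by 1.61 and the differentiation inhibitor id1 by 1.74. The neuronal RNA-binding gene elavl3 was at 0.0183 ± 0.0253 against 0.404 ± 0.275 (log2 -1.35, adjusted p = 0.0068). Elavl3 stood below 0.1 transcripts per cell in positive cells, and gra, named next, in negative cells. Each reached the filter through the cells where it was high, and the list counts below do not separate such genes. Gra joined the higher genes at 0.380 ± 0.178 against 0.0443 ± 0.0837 (log2 1.24, SE 0.38, adjusted p = 0.0138). So did the small heat shock gene hspb1 (log2 1.30), the cathepsin gene ctsla (log2 1.21) and the splicing genes u2af2b (log2 1.18) and snrpb (log2 0.93). Some lists went both ways. Of 18 cell cycle genes 1 was higher and 4 lower. Of 26 splicing and hnRNP genes 2 were higher and 1 lower, and of 11 stress genes 1 was higher and 1 lower. HNRNPAB and u2af2b are not members of the splicing and hnRNP list. In other lists 5 of 11 epidermis genes, 3 of 9 neural, 2 of 5 collagen and matrix and 5 of 20 chromatin genes were lower. So were 7 of 34 small and 6 of 46 large ribosomal subunit and 4 of 10 mitochondrially encoded genes, with 0 higher in each of these other lists. The 6 of 46 lies near the share of all genes that were lower. After rescaling the lower genes of these lists were 5 epidermis, 3 neural, 0 collagen and matrix, 5 chromatin, 3 small and 5 large subunit and 2 mitochondrially encoded genes, and 2 chromatin genes were higher. Over all genes 46 of 638 were then lower, and the 3 of 34 small and 5 of 46 large subunit genes lie near that share.

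**Figure D4:**
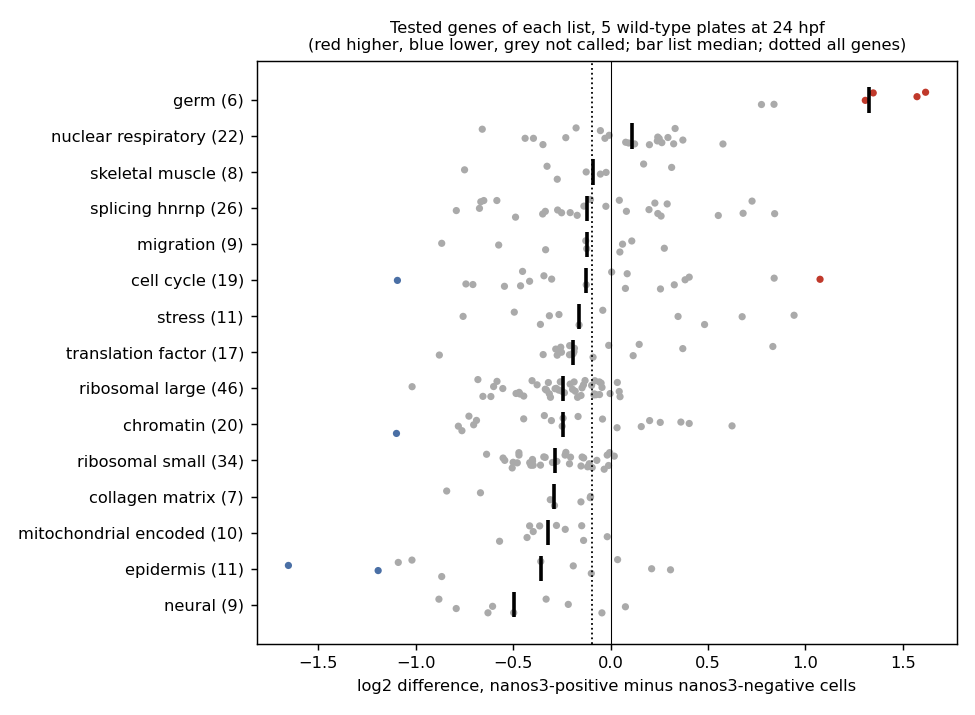
Log2 differences (x axis) between positive and negative wild-type cells for the tested genes of each list with 5 or more tested genes (number in brackets), where red points passed as higher, blue as lower and grey did not pass. The solid bar is the list's median and the dotted line the median of all genes at -0.09. The median of the germ list lies to the right of all others. All tested germ genes but vasa reached the filter through the positive cells, and with no filter the germ median was 0.77.

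In the comparison at 1 or more transcripts the somatic lists held few calls. Counts of negative differences below stand beside 369 of 653 over all genes. Of 11 tested epidermis genes 2 were lower (krt4 and krt8) and 0 higher, with a median log2 difference of -0.36 against -0.09 over all genes. Of the 11, 8 had negative and 3 positive differences, the latter epcam at 0.31, the keratin krt5 at 0.21 and anxa1c at 0.04. Krt18 was lower in all 5 plates without passing, at 0.0353 ± 0.0509 against 0.517 ± 0.833 (adjusted p = 0.14). The epidermis sum ranged from 0.36 to 4.30 transcripts per positive cell and from 2.42 to 10.46 per negative cell, with plate 4 alone higher in positive cells. Of 9 neural genes 0 passed, at a median of -0.50, and 8 had negative differences. Elavl3 stood at 0.129 ± 0.172 against 0.404 ± 0.275 (log2 -0.88, adjusted p = 0.127). The neural sum was lower in positive cells of all 5 plates, 2.52 to 3.71 against 3.47 to 6. Of 8 skeletal muscle genes 0 passed, at a median of -0.09, and sums ran from 1 to 4.14 in positive and from 0.33 to 8.50 in negative cells. Sarcomeric actc1b stood at 0.0466 ± 0.0547 against 0.221 ± 0.126 (adjusted p = 0.189). Krt18 and actc1b stood below 0.1 transcripts per cell in positive cells and reached the filter through the negative cells. All 7 tested collagen and matrix genes had negative differences with 0 calls, at a median of -0.29. Col2a1a, also of this list of 8, was below the filter and went the other way, at 0.099 against 0.019 transcripts per cell. The sum of this list was higher in positive cells of plate 4, 2.22 against 0.35, and lower in the other plates. No blood or macrophage gene was abundant enough to be tested; haemoglobin sums were at most 0.12 transcripts per cell.

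The lists of growth and of the general cell machinery held 3 calls. Of 19 cell cycle genes 1 passed as higher, the histone gene h2afva, and 1 as lower, ccnd1, at a median of -0.13. Pcna was lower in all 5 plates, at 1.03 ± 0.323 against 1.86 ± 0.472, with an adjusted p of 0.074. Of 20 chromatin genes 1 was lower, ptmab, at a median of -0.25; h3f3d, a replacement histone H3 gene, did not overlap at 0.849 ± 0.122 against 1.62 ± 0.529 but had an adjusted p of 0.074. Among the 26 genes of the splicing and hnRNP list 0 passed. HNRNPAB, called higher above, is not in this list, so the 0 does not cover every hnRNP gene. In the list, hnrnph1l at 0.680 ± 0.370 against 0.295 ± 0.186 and snrpb at 1.81 ± 0.417 against 1.09 ± 0.425 were higher in all 5 plates (adjusted p = 0.127 and 0.102). Of 17 translation factor genes 0 passed, with eif3f at log2 0.83 and eef1b2 at -0.88, both at an adjusted p of 0.127. Of 11 stress genes 0 passed, with hspb1 higher in 5 of 5 plates (0.703 ± 0.619 against 0.247 ± 0.215, adjusted p = 0.074). Migration genes had 0 of 9 and both tested p53 targets 0 calls, with medians of -0.12 and 0.24.

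Ribosomal protein genes had mostly negative differences, fewer of them after rescaling. None of 46 large and 34 small subunit genes passed, but 43 and 33 had negative differences, with medians of -0.24 and -0.29. Over all genes 369 of 653 differences were negative. After rescaling 27 large and 22 small subunit genes were negative, with medians of -0.07 and -0.11 against 0.05 over all genes. Of all 653 genes 300 were then negative. The sum of large subunit genes was 80.7 ± 17.5 transcripts per positive and 97.8 ± 11.9 per negative cell, lower in all 5 plates, most in plate 4 with 60.2 against 104.5. Rpl4 stood at 0.618 ± 0.314 against 1.41 ± 0.449 (adjusted p = 0.068). All 10 tested mitochondrially encoded genes had negative differences, with a median of -0.32, and 7 did after rescaling, with a median of -0.14. Mt-atp6 was lower in all 5 plates, at 7.69 ± 3.26 against 10.5 ± 4.71 (adjusted p = 0.139). The 22 nuclear respiratory genes had 13 positive differences and a median of 0.11, with 0 calls. The lower listed total of positive cells lies beside each of these counts, and its part in them was not tested.

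**Figure D5:**
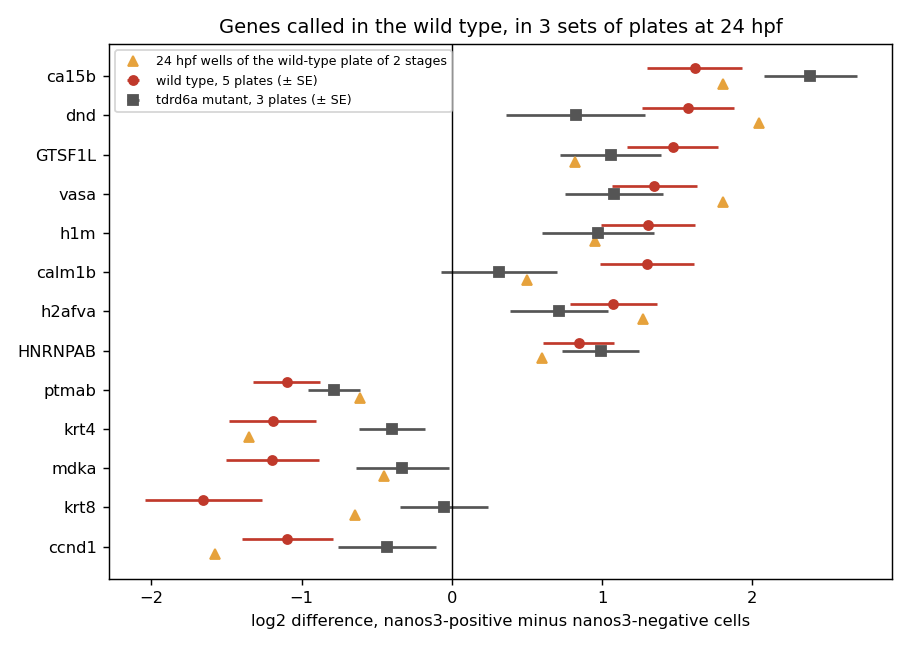
Log2 difference, positive minus negative cells (x axis), of the 13 genes called in the wild type, with standard errors for the 5 wild-type plates (circles) and the 3 mutant plates (squares) and single values for the 24 hpf wells of a wild-type plate of 2 stages (triangles). All 13 lie on the same side of 0 in the 3 sets, and the lower genes lie closer to 0 in the mutant plates.

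The same split was made in the 3 mutant plates, which the rule did not use. Of 639 genes 2 passed (0.313%), 1 higher (0.156%) and 1 lower (0.156%), and 74 had an unadjusted p under 0.05. Without mutant plate 2, with its 6 positive cells, 22 genes passed, 9 higher and 13 lower, and without mutant plate 3 it was 1. The higher gene was ca15b, with 1.17, 0.5 and 1 transcripts per positive cell and 0 in the negative cells of all 3 plates. That is 57 transcripts in 58 positive cells and 0 in 98 negative cells (limma adjusted p = 0.00064, paired by plate). Pooled over plates it is at least 32.1-fold higher against a floor of 3 transcripts in the negative cells. This bound covers counting error only and is no bound within a plate. Mutant plate 3 gave 40 of the positive but 20 of the negative cells. The 8 genes higher in the wild type were all higher in the mutant mean, 6 of them with an unadjusted limma p under 0.05, and their median log2 difference was 1.33 in wild-type and 0.98 in mutant plates. Vasa had 1.08 (SE 0.33), GTSF1L 1.06 (SE 0.34), HNRNPAB 0.99 (SE 0.26), h1m 0.97 (SE 0.37), dnd 0.82 (SE 0.47), h2afva 0.71 (SE 0.33) and calm1b 0.32 (SE 0.39). The separate entry hnrnpab was at -0.38. The 5 lower genes were all lower in the mutant mean, 1 of them with an unadjusted p under 0.05, with medians of -1.19 and -0.40. That gene was ptmab at -0.78 (SE 0.17, adjusted p = 0.069), and krt8 was at -0.05 (SE 0.29). Mutant plates disagreed for calm1b, higher in 2 and lower in 1, and for ccnd1, krt8 and mdka, each lower in 2 and higher in 1. Of all 639 genes tested in the mutant, 289 had positive and 350 negative differences. In the 24 hpf wells of the further wild-type plate, with 16 positive cells of 40, all 8 higher and all 5 lower genes had the same direction. How all genes split by sign in this 1 plate is not given here, so no share stands beside these counts.

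Whether the split differed between genotypes was tested gene by gene, and 1 of 652 genes passed (0.153%), a call that rests on low values. It was col2a1a, a cartilage and notochord collagen, with a log2 difference of differences, mutant minus wild type, of -2.32 (SE 0.47, limma adjusted p = 0.0374). In mutant plates it stood at 0, 0 and 0.075 transcripts per positive cell against 0.433, 0.312 and 1.70 per negative cell (log2 -1.94, SE 0.33, adjusted p = 0.0082 in the mutant alone, and 0.433 without mutant plate 3). In wild-type plates it stood at 0.286, 0, 0.0652, 0.111 and 0.0333 against 0.0588, 0, 0, 0.0385 and 0, levels below the filter there, so the gene entered the interaction test through the mutant negative cells alone, the class where it was high. The mutant groups did not overlap, and the wild-type groups overlapped at low values. The interaction was not called without the plate block or after rescaling. A second collagen II entry, COL2A1, was lower in positive cells of both genotypes, at log2 -0.88 in wild-type and -1.13 in mutant plates. Its difference of differences was -0.26 (limma adjusted p = 0.978). For none of the 13 genes called in the wild type did the difference between genotypes pass, including krt8 (a difference of 1.60 on the log2 scale, limma adjusted p = 0.978).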

How the data were processed

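CEL-seq libraries, 1 per plate with 1 sorted cell per well, were aligned with BWA to Zv9, per the submitters' processing notes; no source used here gives versions, counting, molecular identifiers, scaling or the selection of cells and genes. The unit of the single table that the authors deposited was named signal: all its values are 0.1 above a whole number, within 1e-06. The number above 0.1 is called transcripts. Whether cells were drawn to a common depth is not stated. No count model was the main test. Wells with more than 1 cell were not looked for.

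Means per plate and cell class were tested on log2(mean + 0.2) with limma 3.58.1 in R 4.3.3 (trend, robust, plate as block) where the mean over all classes was at least 0.1; single values used exact permutation tests in scipy 1.17.1. The pairing comes from the plate: positive and negative cells of a plate share a library. Their deviations correlated at 0.42, 0.16, 0.24, 0.015 and 0.21 in plates 1 to 5, against -0.23 to 0.19 for cells of different plates. Named genes were the germ list, called genes with the same sign in every plate and up to 3 members of lowest p in each other list; krt4 and further genes at 2 or more transcripts are marked or follow from a list. Members and lists were chosen with earlier results of these data known, and the pigment cell list after the gene names of the table were seen. Of 1017 gene names 914 matched a symbol; ribosomal, keratin and actin copies may share reads. No sequences or coordinates are given. The fit was also tested on simulated data. Alternatives covered the pseudocount, the filter, scaling, thinning to 300 transcripts, the block, weights by cells, limma voom on summed transcripts, the nanos3 threshold, other plates and left-out plates and cells.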

Additional observations from a re-analysis of the deposited data

Results flagged for a closer look

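In 66 genes or measures with 1 value per wild-type plate, 6 had 1 plate far from the other 4; chance gives such a plate in about 1 of 20 groups. Krt18 had a log2 difference of -3.46 in plate 2, where negative cells stood at 2.00 transcripts per cell, and the nearest plate was at -0.83. The hatching enzyme gene he1a was at -3.94 in plate 3 (nearest -0.76) and the protease gene ctslb, listed with the hatching gland, at -3.53 in plate 3 (nearest -0.37). Of the 63 he1a transcripts in negative cells 48 lay in 1 cell. Cd63, of the same list, was at -0.86 in plate 3 with the nearest plate at 0.77. The pigment cell gene gch2 was at -2.72 in plate 4 (nearest -0.37), with 21 of its 31 transcripts in 1 cell. The apolipoprotein gene apobb was at 0.27 in plate 1 and 0 in the others, where it was not counted. None of these 6 genes passed the test. The split of col2a1a differed between genotypes by -2.32 on the log2 scale in the interaction test. It was below the filter in the wild type, and the call was lost with no replicate block and on rescaling. The second collagen II entry, COL2A1, differed by -0.26 and did not pass.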

How the results depend on the processing

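Calls in the wild type numbered 13. They were 20 with a minimum mean of 0.5, 7 with no replicate block and so without the pairing by plate, 44 with limma voom on summed transcripts and replicate block, 77 at 2 or more nanos3 transcripts, 83 at 2 or more and rescaled, 91 at 2 or more in plates 2 to 5, and 23 with the 24 hpf wells of the plate of 2 stages added. Leaving out plates gave 5 to 19. With no replicate block the calls of ptmab, krt4, mdka, ccnd1, h2afva and HNRNPAB were lost, and without the cell with 75 nanos3 transcripts those of ccnd1, h2afva and HNRNPAB. Vasa, dnd and GTSF1L passed under every alternative that tested them. Mutant calls went from 2 to 13 with a pseudocount of 1 transcript, to 1 with no replicate block, and to 1 to 22 without 1 plate. The genotype interaction went from 1 call to 0 with no replicate block and to 0 on rescaling. The difference in listed transcripts ran from -82.9 to -58.4 without 1 plate, and that in genes detected from -7.24 to 1.22, above 0 without plate 4. Uncalled genes turned sign near 0: without 1 plate cav1 ran from -0.53 to 0.017 (without plate 2) and col11a1a from -0.48 to 0.024 (without plate 3; 0.0089 without plate 1), and apobb went to -0.0072 without cells rich in somatic transcripts. The cause was not tested. Alternatives without such cells, without the cell with the most nanos3, with rescaling at 2 or more and with plates 2 to 5 were chosen after seeing the data. Depth limits every low gene: most values are 0, and few cells stand behind the positive mean of plate 1 and the negative mean of plate 2.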
